A study of Danio rerio with 30 samples.

Results

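The genes described here encode the proteins of the mitochondrial ribosome. They were chosen by name, as every gene of the count table whose symbol, ignoring case, starts with mrpl or mrps followed by a digit, which gave 75 of 32520 genes. Of these, 47 are mrpl genes and 28 are mrps genes, and no name was carried by more than 1 gene ID. Symbols are printed as the name table gives them, so that zebrafish genes appear partly in capitals.

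RNA-seq was done on mCherry-positive cells, sorted by flow cytometry from trypsin-dissociated larvae that carry the she:mcherry reporter and were 5 days old, counted from fertilization. The labels give the tissue as posterior lateral line and the cells as neuromast cells, the sensory organs in which support cells surround mechanosensory hair cells. The 4 groups of 3 libraries were siblings in homeostasis, isl1a psi97 mutants in homeostasis, siblings 3 h after neomycin, and isl1a psi97 mutants 3 h after neomycin. Neomycin, an aminoglycoside that kills lateral line hair cells, was given at 300 uM for 30 min and washed out. All groups carried the reporter, the labels do not say whether the siblings were wild type or heterozygous, and how many larvae went into a library is not given in the sources used here. isl1a encodes a LIM homeodomain transcription factor, and the title of the series names its part in the start and the end of lateral line regeneration as the subject.

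The mitochondrial ribosome translates the few mRNAs made from mitochondrial DNA, all of which encode core subunits of the respiratory chain and the ATP synthase. Its small subunit decodes the mRNA and its large subunit forms the peptide bonds. The rRNAs come from mitochondrial DNA, whereas every protein member is encoded in the nucleus, made in the cytosol and imported. The ribosome descends from that of bacteria, the target of aminoglycosides, and variants of the human mitochondrial small-subunit rRNA are known for hearing loss after aminoglycoside treatment.

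Libraries held between 23918226 and 30354161 counts in genes, and all 75 genes had counts in all 12 libraries and passed the filter on low counts, with 101 as the lowest count of any of them in a library. Levels are CPM, the read count scaled to the TMM-adjusted library size. They are not corrected for transcript length, so that levels are compared between libraries and not between genes. ISL1, the entry for isl1a, lay at 107 to 289 CPM in the sibling libraries and at 1.49 CPM or less in the mutant libraries. Of the mutant libraries, replicate 2 at 3 h held the 1.49 CPM, and those in homeostasis were at 0.037 CPM or less. Summed over 10 hair cell marker genes, the level was 27002 to 32097 CPM in siblings and 13147 to 16743 CPM in mutants in homeostasis, and 2016 to 5863 CPM in siblings and 1031 to 2059 CPM in mutants 3 h after neomycin. The summed level of 7 support cell marker genes lay between 2514 and 3509 CPM in all 12 libraries, and calls for single genes are given below with those of other markers. In such bulk samples a change in the number of cells of a type and a change in RNA per cell cannot be told apart.

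One library stood apart before any comparison. In sibling replicate 2 at 3 h after neomycin, every one of the 75 genes was at its highest level of all 12 libraries. The ratio of this library to the mean of the other sibling libraries at 3 h had a median of 2.63 over the 75 genes, against 1.01 over all 22000 genes tested, of which 50.4% were above 1. It ranged from 1.52 for MRPS5 to 4.44 for mrpl53, with 4.19 for MRPS14 and 1.56 for MRPL37.

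The same library differed in other ways. It had the lowest TMM factor, 0.756 against 0.916 to 1.097 in the others, and the highest share of ambiguous reads, 4.49% against 2.20% to 3.15%. Its share of reads outside annotated features was the lowest, 13.6% against 15.7% to 20.2%. The same ratio had a median of 1.84 over 78 cytosolic ribosomal protein genes and 1.59 over 13 protein genes of the mitochondrial DNA. Over 25 mitochondrial import genes it was 2.43. Among markers the median was 3.31 over 5 liver, 1.72 over 7 support cell, 1.65 over 5 erythrocyte and 1.33 over 8 skeletal muscle genes. It was 1.18 over 4 leukocyte, 1.04 over 10 hair cell and 0.98 over 4 epidermis genes. Single genes ran from 0.69 to 3.07 among the leukocyte, from 0.35 to 3.16 among the hair cell and from 0.88 to 1.24 among the epidermis markers. The 5 liver markers summed to 4902 CPM in this library, against 205 to 2756 CPM in the others. With TMM, the summed level of the 75 genes in this library was 2.64 times the mean of the other sibling libraries at 3 h. Scaled by library size only, it was 1.84 times that mean. Whether any of the other differences plays a part in the levels of the 75 genes in this library was not tested. The counts and medians over the 75 genes are given with and without this library.

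Summed over the 75 genes, the level was 1738, 1540 and 1910 CPM in the 3 sibling libraries in homeostasis. It was 1843, 1863 and 1871 CPM in the mutants in homeostasis. After neomycin it was 2517, 6840 and 2672 CPM in the siblings and 2439, 3408 and 2600 CPM in the mutants. Every library at 3 h lay above every library in homeostasis, and replicate 2 was the highest of its group in both genotypes. The ratio of the group means at 3 h to homeostasis was 2.32 in siblings, 1.5 in siblings without replicate 2, and 1.51 in mutants.

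The 2 subunits were summed separately, over 49 large-subunit and 26 small-subunit genes. MRPS30 and MRPS18A are counted with the large subunit, where they sit in mammals. The large-subunit sum went from 1164 ± 122 CPM (SD, n = 3) in siblings in homeostasis to 2714 ± 1668 CPM (n = 3) at 3 h, and in mutants from 1248 ± 17.1 CPM (n = 3) to 1872 ± 353 CPM (n = 3). In the small subunit the libraries of both genotypes at 3 h, from 814 to 2201 CPM, also lay above all libraries in homeostasis, which held 497 to 624 CPM.

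**Figure D1:**
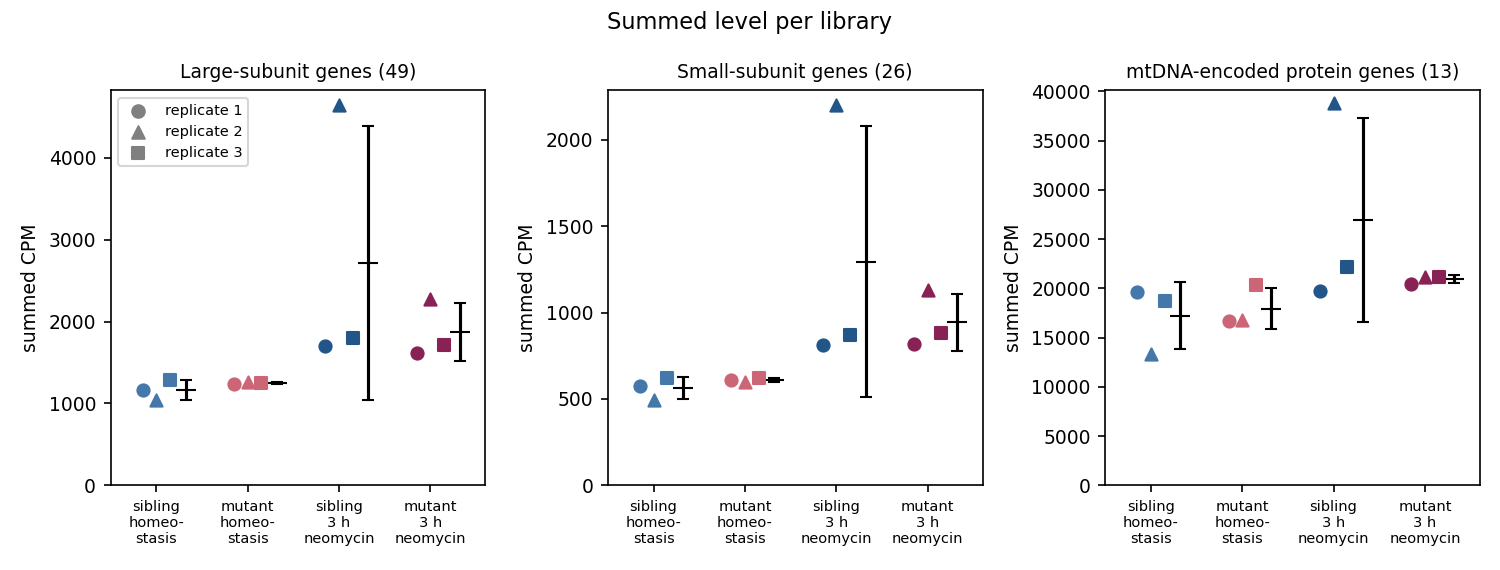
Summed CPM (vertical axes, linear) of 49 large-subunit genes, 26 small-subunit genes and 13 protein genes of the mitochondrial DNA in each library, with marker shape for the replicate number and a bar for the mean and SD of the 3 libraries of a group. Sibling replicate 2 at 3 h lies far above its group in all panels, and in the panels of both subunits the other libraries at 3 h also lie above every library in homeostasis.

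By mean CPM over the 12 libraries the highest members were MRPL12, MRPS30, MRPL2 and MRPL23, and the lowest were MRPL1, mrpl58, MRPL43 and MRPL10. CPM are not corrected for transcript length, so this ranking does not compare expression between genes. MRPS30, which sits in the large subunit in mammals, had 58.1, 48.4 and 61.8 CPM in siblings and 50.6, 51.9 and 48.99 CPM in mutants in homeostasis, then 67.6, 181 and 70.5 CPM and 56.2, 73.3 and 61.1 CPM after neomycin. MRPL2, a core protein next to the site of peptide bond formation, ranged from 44.2 to 56.6 CPM in homeostasis and from 66.8 to 110.2 CPM at 3 h. MRPL1, of the mobile arm at the exit site for tRNA, ranged from 3.37 to 5.95 CPM in homeostasis and from 5.66 to 17.8 CPM at 3 h, and its sibling groups overlapped while its mutant groups did not.

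**Figure D2:**
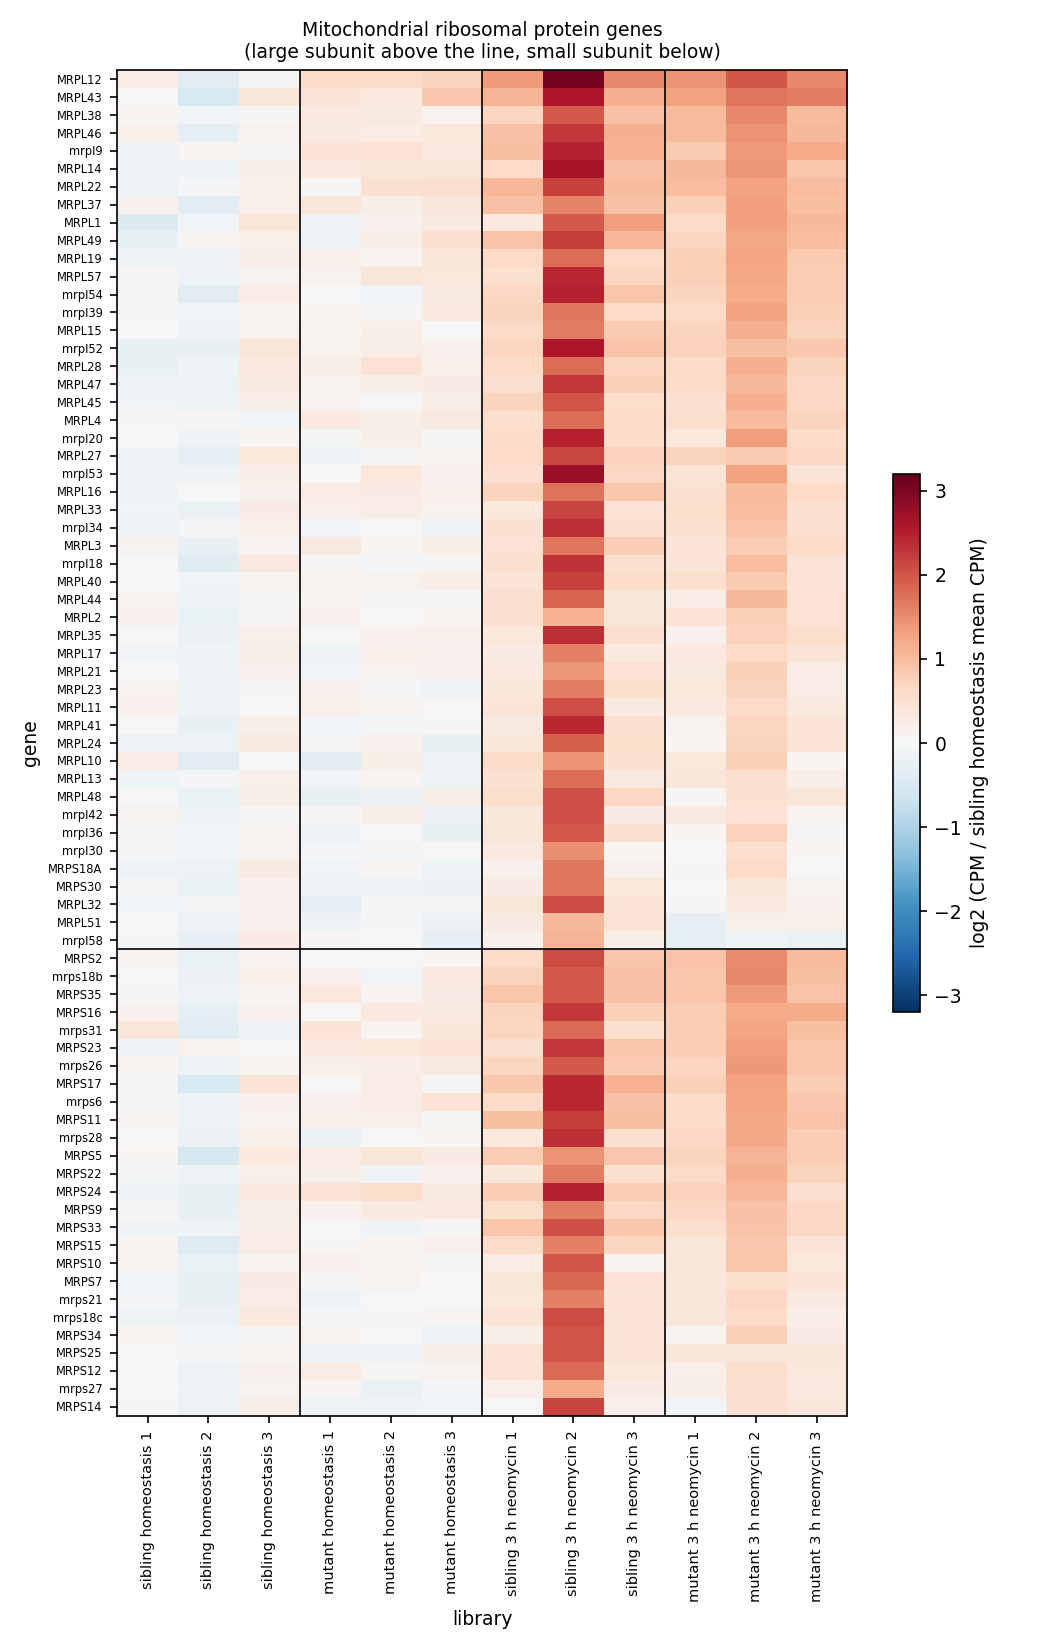
log2 ratio of CPM to the mean of the sibling libraries in homeostasis (colour scale) for each of the 75 genes (rows, large subunit above the line and small subunit below) in each of the 12 libraries (columns). Sibling replicate 2 at 3 h is the strongest column, and in 55 of the 75 genes every library at 3 h is above every library in homeostasis, which holds for 7.61% of all genes.

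The first comparison asked how siblings responded to neomycin. Of the 75 genes, 65 rose, none fell and 10 did not pass the test, which was the quasi-likelihood test of edgeR, adjusted after Benjamini and Hochberg over 22000 genes, with a threshold of 0.05. Of all genes tested, 11.2% rose and 10.8% fell. The median log2 fold change of the 75 genes was 1.20, against 0.10 over all genes, and single values ran from 0.54 for mrpl58 to 2.21 for MRPL12. In 69 genes every library at 3 h was above every library in homeostasis, which held for 17.5% of all genes.

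Without sibling replicate 2 at 3 h, 39 of the 75 genes rose and none fell, with 9.2% of all genes rising, and the median log2 fold change was 0.56 against 0.02. All 75 fold changes kept a positive sign. Sibling replicates 1 and 3 at 3 h were above all siblings in homeostasis in 69 genes, which held for 25.9% of all genes. Replicate 2 was the highest library in all 75 genes, so leaving it out could not change this count of members. When only the sibling libraries were fitted, 9 members rose (4.12% of all genes), and 26 (7.3% of all genes) when replicate 2 was also left out, a choice made after seeing the data.

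MRPL12, the stalk protein that recruits translation factors to the ribosome and in human cells is also known to bind the mitochondrial RNA polymerase, had 36.02, 24.5 and 31.7 CPM in siblings in homeostasis and 79.6, 259 and 88.7 CPM at 3 h. All 3 libraries at 3 h were above all 3 in homeostasis, with replicate 2 far above the others. The log2 fold change was 2.21 ± 0.39 (SE, adjusted p = 0.0015), and 1.41 ± 0.18 (adjusted p = 0.00013) without replicate 2.

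MRPL37, a mitochondrion-specific large-subunit protein, had 36.6, 26.6 and 37.1 CPM in homeostasis and 63.9, 99.6 and 63.6 CPM at 3 h. The groups did not overlap, and replicate 2 was nearer to the others than in most members. Its log2 fold change was 1.18 ± 0.23 (SE, adjusted p = 0.0030) with replicate 2 and 0.88 ± 0.17 (adjusted p = 0.0030) without it.

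MRPL46, another mitochondrion-specific protein of the large subunit, had 19.0, 13.6 and 18.4 CPM in homeostasis and 32.7, 81.3 and 37.3 CPM at 3 h. Its fold change on the log2 scale was 1.57 ± 0.31 (SE, adjusted p = 0.0032), and 0.99 ± 0.17 (adjusted p = 0.0013) without replicate 2. In the RefSeq gene table of assembly GRCz12tu, mrpl46 and mrps11 are the only 2 members that are next to each other among protein-coding genes. MRPS11, a small-subunit protein with a bacterial counterpart and named here for its position, had 22.9, 19.2 and 22.97 CPM and then 42.5, 100.4 and 42.3 CPM, a log2 fold change of 1.51 ± 0.31 (adjusted p = 0.0040), or 0.92 ± 0.17 (adjusted p = 0.0016) without replicate 2. The library kit does not mark strand, so any reads from where such neighbours overlap cannot be told apart.

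MRPS35, a mitochondrion-specific small-subunit protein, had 23.3, 20.99 and 23.7 CPM in homeostasis and 42.3, 88.0 and 43.7 CPM at 3 h. The log2 fold change was 1.35 ± 0.27 (SE, adjusted p = 0.0034), and 0.88 ± 0.15 (adjusted p = 0.0012) without replicate 2. mrpl9, whose product has a counterpart in bacteria, had 12.6, 14.1 and 13.8 CPM and then 26.4, 73.9 and 29.1 CPM. Neither gene's groups overlapped, and mrpl9 rose by 1.68 ± 0.33 on the log2 scale (adjusted p = 0.0034), or by 1.00 ± 0.16 (adjusted p = 0.00079) without replicate 2.

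**Figure D3:**
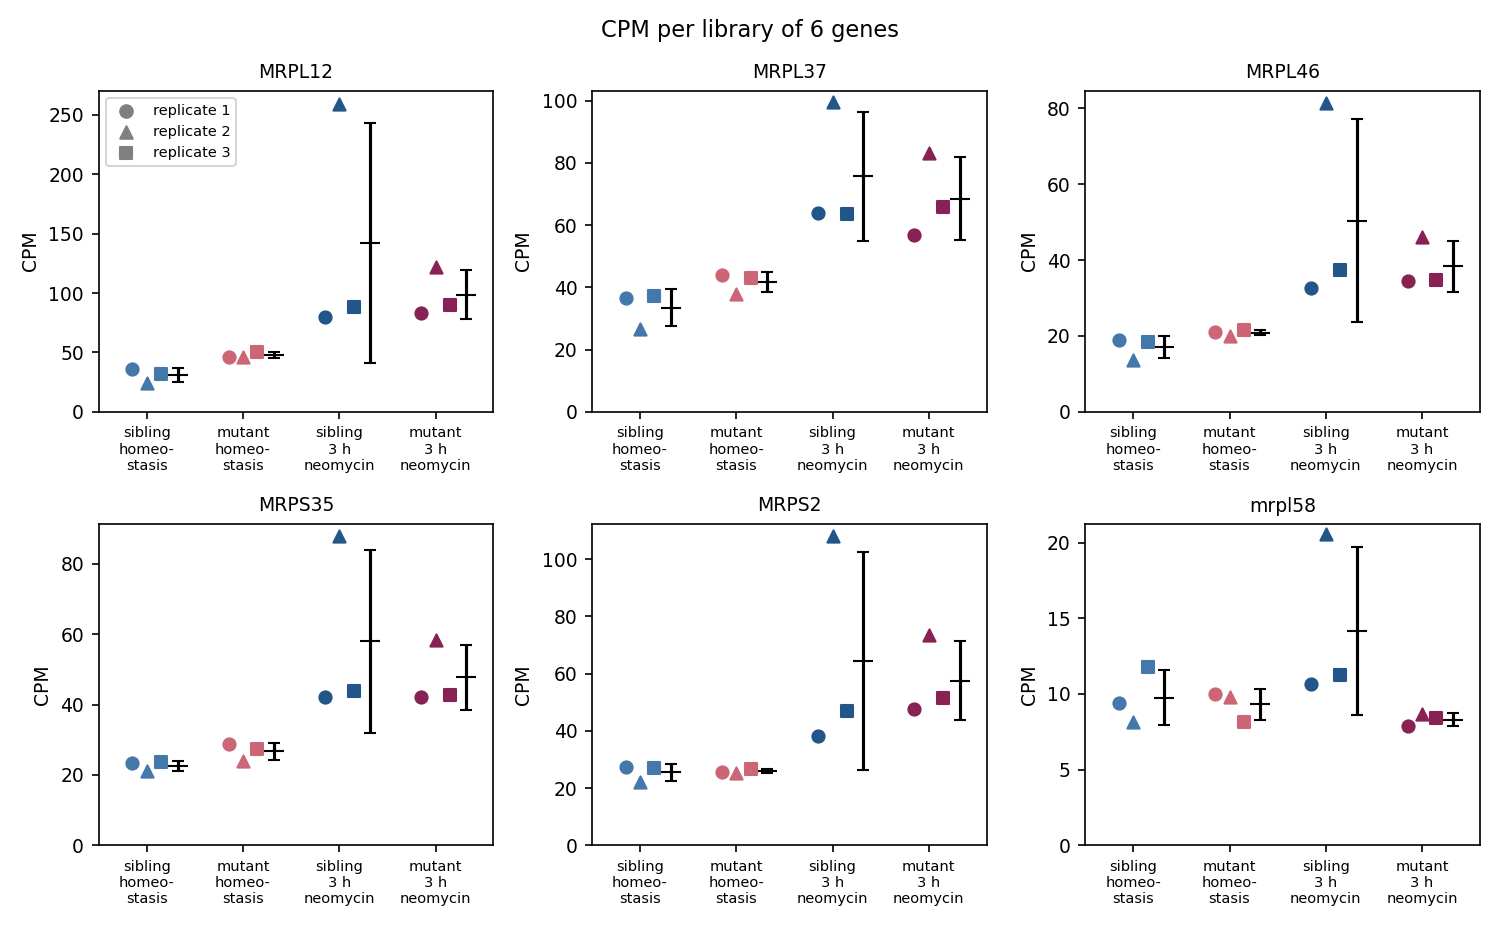
CPM (vertical axes, linear, from 0) of MRPL12, MRPL37, MRPL46, MRPS35, MRPS2 and mrpl58 in each library, with marker shape for the replicate number and a bar for the mean and SD of the 3 libraries of a group. In the first 5 genes all libraries at 3 h lie above all libraries in homeostasis, whereas the mutant libraries of mrpl58 lie at 7.87 to 8.65 CPM at 3 h and at 8.13 to 10.01 CPM in homeostasis.

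The 10 genes that did not pass in siblings were MRPS30, MRPS34, MRPL51, MRPL17, MRPS10, MRPS14, mrps27, mrpl30, MRPS18A and mrpl58. MRPS14, a small-subunit protein with a bacterial counterpart, shows how far 1 library can carry a value. It had 23.7, 21.9 and 28.2 CPM in homeostasis and 24.5, 109.5 and 27.8 CPM at 3 h, and its log2 fold change was 1.13 ± 0.45 (adjusted p = 0.092) with replicate 2 and 0.04 ± 0.18 (adjusted p = 0.90) without it. mrpl58, known in human cells as ICT1, a peptidyl-tRNA hydrolase of the large subunit that frees stalled ribosomes, had 9.40, 8.13 and 11.8 CPM and then 10.7, 20.6 and 11.2 CPM.

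Classes of members are given by their counts and medians, with no test between them. Of all genes, 11.2% rose in siblings, or 9.2% without replicate 2. In siblings 43 of 49 large-subunit genes and 22 of 26 small-subunit genes rose, with median log2 fold changes of 1.20 and 1.19. Among 44 genes with a bacterial counterpart 40 rose (median 1.15), and among 27 mitochondrion-specific genes 23 rose (median 1.29), the remaining 4 genes not being classed. Without replicate 2 the counts were 25 and 14 for the large and the small subunit (medians 0.54 and 0.58) and 23 and 15 for the bacterial and the mitochondrion-specific classes (medians 0.54 and 0.57).

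The stalk, the exit tunnel and a set of small-subunit genes (MRPS12, MRPS7, MRPS2 and MRPS22) were looked at as groups. In the stalk, MRPL10 and MRPL11, which form its base, rose by 0.90 ± 0.30 (SE, adjusted p = 0.047) and 1.17 ± 0.38 (adjusted p = 0.043) on the log2 scale in siblings, beside MRPL12. Neither of the base proteins passed without replicate 2, where the adjusted p was 0.18 and 0.17, whereas MRPL12 did.

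Around the exit of the peptide tunnel, MRPL22, MRPL23, MRPL24, MRPL45 and MRPL47 all rose in siblings, by 0.97 to 1.53. MRPL45, known in mammals as an anchor to the inner membrane, had 24.2, 23.2 and 29.9 CPM in homeostasis and 42.2, 104 and 38.1 CPM at 3 h. Without replicate 2, MRPL22, MRPL45 and MRPL47 still passed, with log2 fold changes of 0.99, 0.59 and 0.60, and MRPL23 (adjusted p = 0.076) and MRPL24 (adjusted p = 0.19) did not.

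In the small-subunit set, MRPS12 is the counterpart of the bacterial decoding-centre protein in which streptomycin resistance arises. It had 25.6, 22.5 and 28.1 CPM in siblings in homeostasis and 34.1, 89.0 and 32.3 CPM at 3 h. Its log2 fold change was 1.03 ± 0.33 (SE, adjusted p = 0.039), and 0.34 ± 0.15 (adjusted p = 0.13) without replicate 2. MRPS7, MRPS2 and the mitochondrion-specific MRPS22 rose by 1.06, 1.33 and 0.96 with all libraries, and of these MRPS2 passed without replicate 2, at 0.69 ± 0.18 (adjusted p = 0.015).

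The mutant response to neomycin was compared in the same way. With all 12 libraries, 5 of the 75 genes rose and none fell, where 6.95% of all genes rose and 9.56% fell, so that the share of members called was close to the share of all genes. The median log2 fold change was 0.58, against -0.04 over all genes, and 74 of 75 values were positive. In 63 genes every mutant library at 3 h was above every mutant library in homeostasis, which held for 20.8% of all genes, and 26 of the 75 genes had an unadjusted p under 0.05, against 28.8% of all genes.

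The count moved with the sibling library that stood apart, which is in neither mutant group but in the same fit. Without it, 50 of the 75 genes rose in mutants and none fell, with 12.9% of all genes rising, and the median log2 fold change was 0.56 against -0.05 over all genes. A fit of the mutant libraries alone also called 50 genes, where 14.4% of all genes rose. For the 5 genes called with all libraries, the log2 fold changes were 0.72 to 1.15 with it and 0.70 to 1.13 without it. Their SE was 0.23 to 0.33 with it and 0.14 to 0.17 without it. What moved the count was not tested: leaving the library out changed the estimate of the spread, the scaling and the number of genes tested.

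MRPS2, a small-subunit protein with a bacterial counterpart, had the largest change in mutants, with 25.5, 25.4 and 26.8 CPM in homeostasis and 47.7, 73.4 and 51.6 CPM at 3 h. The groups were well apart, and the log2 fold change was 1.15 ± 0.33 (SE, adjusted p = 0.031). mrps18b, which encodes 1 of several S18 proteins of the ribosome, went from 29.7, 25.5 and 33.3 CPM to 49.4, 77.9 and 52.4 CPM, a rise of 1.02 ± 0.30 (adjusted p = 0.036).

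MRPL38, a mitochondrion-specific protein on the large subunit, had 34.3, 33.5 and 29.7 CPM in mutants in homeostasis and 55.1, 80.1 and 55.4 CPM at 3 h, a log2 fold change of 0.97 ± 0.29 (SE, adjusted p = 0.037). MRPL37 had 44.03, 37.98 and 43.03 CPM and then 56.9, 83.1 and 65.7 CPM, and MRPS35 had 28.8, 23.9 and 27.4 CPM and then 42.1, 58.3 and 42.8 CPM. In these 3 genes too no library at 3 h reached down to homeostasis, and MRPL37 rose by 0.72 ± 0.23 (adjusted p = 0.048) and MRPS35 by 0.84 ± 0.27 (adjusted p = 0.049). Each of the 5 calls was lost in between 5 and 10 of the 12 fits that leave out 1 library, among them those without mutant replicate 2 at 3 h, and all 5 had adjusted p values from 0.00029 to 0.0055 without sibling replicate 2 at 3 h.

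Mutant replicate 2 at 3 h was the highest of its group for 73 of the 75 genes, with a median ratio of 1.35 to the mean of the others, against 1.05 over all genes. It also had the next lowest TMM factor, 0.916, and the next lowest share of reads outside annotated features, 15.7%. The same ratio was 2.10 over the 5 liver markers, 1.18 over 78 cytosolic ribosomal protein genes and 1.00 over 13 protein genes of the mitochondrial DNA. Its share of ambiguous reads was 2.84%, within the range of other libraries. ISL1 was at 1.49 CPM in it, 12.4 times the mean of the other mutant libraries at 3 h. With all 12 libraries ISL1 was called as risen in mutants, with a log2 fold change of 5.1. That value lies near the floor of detection, since ISL1 was at 0.037 CPM or less in the mutant libraries in homeostasis. When replicate 2 of both genotypes at 3 h was left out, a choice made after seeing the data, 32 genes rose in mutants, where 11.6% of all genes did. The single member with a negative value in mutants was mrpl58, at -0.16 ± 0.27 (SE, adjusted p = 0.75).

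The same model without sibling replicate 2 called 37 genes as risen in both genotypes, which is 94.9% of the 39 called in siblings and 74% of the 50 called in mutants, and 23 genes as risen in neither. Of all genes 6.34% rose in both, which is 68.9% of those called in siblings and 49% of those called in mutants. The 2 comparisons share no libraries but share the estimate of the spread. Among the 23 were the stalk base genes MRPL10 and MRPL11, MRPS12 and MRPS7 of the small-subunit set, and mrpl58, MRPS14 and MRPS30.

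Mutants and siblings in homeostasis were compared next. None of the 75 genes passed the test, where 3.57% of all genes were called. None had an unadjusted p under 0.05, against 15.9% of all genes. By DESeq2 the count was also 0, where 8.3% of all genes were called. The median log2 fold change was 0.09, against 0.01 over all genes, with 51 genes higher and 24 lower in mutants. The mutant libraries were all above the sibling libraries in 12 genes (14.5% of all genes) and all below in none (15.4% of all genes).

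MRPL12 was closest to the threshold, with 46.3, 45.8 and 50.5 CPM in mutants against 36.02, 24.5 and 31.7 CPM in siblings. The groups did not overlap, and the log2 fold change was 0.63 ± 0.37 (SE, adjusted p = 0.48). Without sibling replicate 2 at 3 h, which is in neither group, the value was 0.61 ± 0.16 (adjusted p = 0.036), the only member called there, where 9.19% of all genes were. MRPL43, a mitochondrion-specific protein of the large subunit, had 6.60, 6.18 and 8.97 CPM in mutants and 4.91, 3.54 and 6.43 CPM in siblings, which overlap, and a log2 fold change of 0.55 ± 0.38 (adjusted p = 0.58).

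At 3 h after neomycin, the comparison of mutants with siblings also called none of the 75 genes, where 9.78% of all genes were called. DESeq2 called none either, where it called 16.2% of all genes. By edgeR, 10 of the 75 genes had an unadjusted p under 0.05, against 26.2% of all genes. All 75 log2 fold changes were negative, with a median of -0.53 against -0.14 over all genes, and 5 genes had all mutant libraries below all sibling libraries (13.6% of all genes). This direction rested on sibling replicate 2. Without it 55 of the 75 values were positive and 20 negative, the median was 0.11 against -0.04 over all genes, and none was called, where 13.1% of all genes were. An unadjusted p under 0.05 was found there for 5 members and 28% of all genes.

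mrpl58 had the smallest p, with 7.87, 8.65 and 8.41 CPM in mutants against 10.7, 20.6 and 11.2 CPM in siblings. All mutant libraries were below all sibling libraries, and the log2 fold change was -0.77 ± 0.27 (SE, adjusted p = 0.089), or -0.39 ± 0.20 (adjusted p = 0.25) without sibling replicate 2. MRPL32, a large-subunit protein known in yeast and mice as a substrate of the mitochondrial m-AAA protease, had 24.6, 31.4 and 28.2 CPM in mutants and 33.3, 108 and 33.8 CPM in siblings. Its groups did not overlap, and the value was -1.06 ± 0.37 (adjusted p = 0.094), or -0.25 ± 0.16 (adjusted p = 0.34) without that library.

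The difference between both responses was tested as an interaction. None of the 75 genes passed with edgeR, which called 0.105% of all genes, and none passed with DESeq2, which called 1.7% of them. An unadjusted p under 0.05 was found by edgeR for 2 members and 8.89% of all genes. All 75 values were negative with all libraries, with a median of -0.66 against -0.14 over all genes. Without sibling replicate 2 the median was 0.01, with 43 positive and 32 negative values and again none called, where 0.84% of all genes were. A p that misses the threshold does not show that the genotypes responded alike.

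The 2 members with the smallest interaction p were MRPS24 and MRPL12. MRPS24, a small-subunit protein with a bacterial counterpart, had 12.3, 11.5 and 16.7 CPM in siblings and 18.3, 19.9 and 16.5 CPM in mutants in homeostasis, then 23.1, 74.9 and 23.3 CPM and 22.3, 27.95 and 19.5 CPM after neomycin. The interaction was -1.23 ± 0.55 (SE, adjusted p = 0.54) for MRPS24 and -1.16 ± 0.53 (adjusted p = 0.55) for MRPL12. These values were -0.40 ± 0.27 and -0.37 ± 0.24 without sibling replicate 2.

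**Figure D4:**
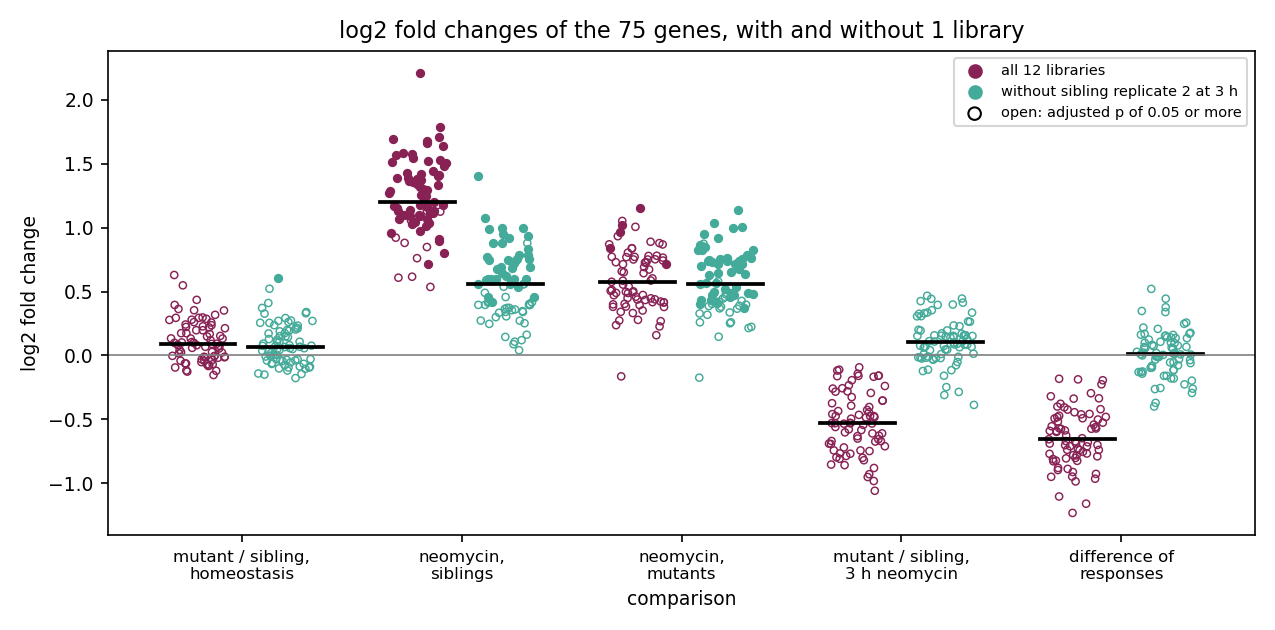
log2 fold change (vertical axis) of each of the 75 genes (points) in the 5 comparisons, with all 12 libraries and without sibling replicate 2 at 3 h. Filled points have an adjusted p under 0.05 and lines mark medians, which go from 1.20 to 0.56 for neomycin in siblings, from 0.58 to 0.56 in mutants and from -0.53 to 0.11 for mutants against siblings at 3 h.

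Other genes of mitochondrial translation were read from lists chosen for their roles. Beside the counts of these lists and of the markers below, 11.2% of all genes rose and 10.8% fell in siblings after neomycin. In mutants 6.95% rose and 9.56% fell. Without sibling replicate 2, 9.2% of all genes rose in siblings and 12.9% in mutants. The 5 mitoribosome proteins with other names, AURKAIP1, chchd1, DAP3, GADD45GIP1 and ptcd3, all rose in siblings, with a median log2 fold change of 1.51, and none passed in mutants with all 12 libraries. Without sibling replicate 2, 4 rose in siblings, AURKAIP1 being the exception (adjusted p = 0.11), and all 5 in mutants. DAP3, a GTP-binding protein of the small subunit, had 40.3, 32.4 and 41.3 CPM in siblings in homeostasis and 54.4, 118 and 59.9 CPM at 3 h.

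Of 15 translation factors, 9 rose in siblings and 4 in mutants, and none fell. Without sibling replicate 2, 8 rose and MTRFR fell in siblings, and 6 rose in mutants. TUFM, the elongation factor that delivers tRNAs, had 78.7, 63.1 and 89.9 CPM in siblings in homeostasis and 152, 277 and 175 CPM at 3 h, with log2 fold changes of 1.38 (adjusted p = 0.0018) in siblings, or 1.04 without replicate 2, and 1.11 (adjusted p = 0.0083) in mutants. GFM1, the translocation factor, lay in sibling replicate 2 between the other sibling libraries at 3 h, with 50.4, 49.996 and 48.1 CPM after 26.3, 21.4 and 28.9 CPM in homeostasis. It rose by 0.95 (adjusted p = 0.0036) in siblings and by 0.93 (adjusted p = 0.0053) in mutants. The release factor gene mtrf1 and OXA1L, which inserts new proteins into the inner membrane, were the others that rose in both genotypes.

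Of 26 tested genes for mitoribosome assembly, 20 rose in siblings and 11 in mutants, none fell, and without sibling replicate 2 the count was 18 in each genotype. C1QBP, a matrix protein known to support mitochondrial translation in mice, had 47.5, 30.0 and 47.2 CPM in siblings in homeostasis and 132, 312 and 148 CPM at 3 h. Its log2 fold change was 2.25 (adjusted p = 0.00041) in siblings, or 1.70 without replicate 2, and 1.46 (adjusted p = 0.0071) in mutants. NOA1, a GTPase needed for the small subunit, had 8.92, 5.92 and 7.27 CPM and then 20.8, 14.4 and 18.8 CPM, with the lowest value at 3 h in replicate 2. MRM2, an rRNA methyltransferase, was the only gene of this list called between genotypes at 3 h, at -1.40 ± 0.38 (SE, adjusted p = 0.035), and was not called without sibling replicate 2.

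The 13 protein genes of the mitochondrial DNA, whose mRNAs this ribosome translates, were counted too. Of them 4 rose in siblings (MT-ATP6, MT-ND1, MT-ND2 and MT-ND5) and none in mutants, with median log2 fold changes of 0.68 and 0.25. When sibling replicate 2 was left out, MT-ND1 and MT-ND2 still passed in siblings, none passed in mutants, and the medians were 0.31 and 0.24. MT-CO1 ranged from 3624 to 6940 CPM in homeostasis and from 6496 to 7218 CPM at 3 h. Every library at 3 h was above every library in homeostasis in 6 of the 13 genes within siblings and in 6 within mutants, against 17.5% and 20.8% of all genes.

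Of 8 genes for transcription and upkeep of mitochondrial DNA, POLG2, SSBP1 and tfb2m rose in siblings and tfb2m in mutants, whereas without sibling replicate 2 SSBP1 and tfb2m rose in each genotype. TFAM, which packages mitochondrial DNA and starts its transcription, had 23.6, 25.6 and 26.6 CPM in siblings in homeostasis and 25.98, 68.1 and 30.3 CPM at 3 h, with a log2 fold change of 0.71 (adjusted p = 0.11), or 0.11 (adjusted p = 0.66) without replicate 2. POLRMT, the RNA polymerase, ranged from 32.98 to 35.8 CPM in homeostasis and from 38.2 to 48.2 CPM at 3 h, and did not pass in either genotype.

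Among 15 tested regulators of nuclear genes for mitochondria, pprc1, MYCN, MAX and 1 of the 2 gene IDs named MYC rose in both genotypes, and GABPB1 fell in siblings. Without sibling replicate 2, 4 rose and 1 fell in siblings, and 5 rose and 1 fell in mutants. MAX did not pass in siblings there (adjusted p = 0.076). pprc1, a PGC-1 family coactivator known to respond to serum in cultured cells, had 41.2, 18.6 and 28.2 CPM in siblings and 50.03, 46.2 and 60.8 CPM in mutants in homeostasis, then 109, 198 and 121 CPM and 187, 194 and 175 CPM at 3 h. Its log2 fold change was 2.28 (adjusted p = 0.00020) in siblings, or 1.93 without replicate 2, and 1.82 (adjusted p = 0.0012) in mutants. NRF1, a factor known to bind promoters of such genes, lay at 28.6 to 34.04 CPM at 3 h and at 37.7 to 42.5 CPM in homeostasis, and did not pass in either genotype.

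Proteins that the mitochondrion imports pass the TIMM and TOMM complexes. Of 25 such genes, 19 rose and TIMM17B fell in siblings, and 8 rose in mutants, or 17 and 20 rose without sibling replicate 2. Of 15 tested gene IDs for quality control 7 rose in each genotype, or 6 and 9 without it, among them HSPD1 and HSPE1, the chaperonin pair of the matrix. HSPD1 rose by 1.87 (adjusted p = 0.00012) in siblings and by 1.23 (adjusted p = 0.0023) in mutants.

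Cytosolic ribosomal protein genes were read beside these. Of 78 gene IDs tested, 75 rose in siblings (median log2 fold change 1.01), and in mutants rps19bp1 rose (median 0.48). When sibling replicate 2 was left out, 63 rose in siblings and 53 in mutants, with medians of 0.57 and 0.47. The list takes in rps19bp1, whose product is not part of the ribosome.

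Markers of other cells differed between groups as well. The 5 liver markers summed to 1180 to 2703 CPM in siblings and 205 to 1264 CPM in mutants in homeostasis. At 3 h they summed to 736 to 4902 CPM in siblings and 551 to 1588 CPM in mutants. None of them passed for neomycin in either genotype. All 5 log2 fold changes of mutants against siblings were negative at both times. In homeostasis 1 of them was called (3.57% of all genes), and 1 at 3 h (9.78%). Against the same shares, 4 of 5 erythrocyte, 4 of 8 skeletal muscle and 1 of 4 epidermis markers were higher in mutants in homeostasis. There 2 of 10 hair cell markers were lower. At 3 h 2 erythrocyte markers were higher, and 3 hair cell, 1 support cell and 1 epidermis marker were lower. Without sibling replicate 2, 6 hair cell markers were lower in homeostasis (9.19% of all genes), and 4 erythrocyte markers were higher at 3 h (13.1%). The 4 leukocyte marker genes summed to 29.3 to 89.5 CPM in homeostasis and to 86.0 to 233 CPM at 3 h, and all 4 rose in siblings and 1 in mutants. The 5 erythrocyte markers summed to 95.6 to 153 CPM in siblings in homeostasis and 218 to 326 CPM at 3 h, where 2 of them rose, or 3 without replicate 2. In mutants they summed to 644 to 861 CPM and then 394 to 833 CPM, and none passed. The 8 skeletal muscle markers summed to 41.9 to 54.4 CPM in siblings in homeostasis and 60.8 to 71.2 CPM at 3 h, with none called. In mutants they summed to 122 to 203 CPM and then 65.9 to 104.6 CPM, and 2 fell. The 4 epidermis markers summed to 2373 to 3251 CPM over all libraries, and of these genes 3 rose and 1 fell in siblings, with or without replicate 2, and 1 fell in mutants. Counts of 0 were found for 1 muscle marker in sibling replicate 3 in homeostasis and for 2 in mutant replicate 1 at 3 h, and for no other marker. Of the 10 hair cell markers, 8 fell and ATOH1, which starts hair cell formation, rose in siblings, and 9 fell in mutants. The call for ATOH1 was lost without sibling replicate 2. Of the 7 support cell markers, none passed in siblings, with or without replicate 2. In mutants 1 of them fell, or 4 without sibling replicate 2, and their median log2 fold change was -0.57 with all libraries. The part that any of these cell types has in the rise of the mitochondrial ribosomal protein genes was not tested.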

How the data were processed

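The authors deposited 1 table of raw read counts per Ensembl gene for the 12 RNA-seq libraries. Libraries were made with the SMART-Seq v4 kit, which does not mark strand, from cells sorted into Trizol, per the labels' protocols. STAR 2.7.3a, bcl2fastq 2.18, RSEM, Bowtie2 and danRer11 are named, with no role or order, per the submitters' processing notes. Annotation release and strand setting: not given in the sources used here. Entries that name no gene (28.2% to 35.2% of reads) were left out. Multimapping reads are among these, so near-identical paralogs may be undercounted. The ATAC-seq part of the series (18 samples) was not analysed here.

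Groups and replicate numbers came from sample titles. Replicates are biological triplicates by the design text, with no word on separate clutches, so that p-values cover only the spread among these samples. Reads were PCR-amplified and carry no molecular identifiers. A chi-square test within each group found every pair of libraries to differ beyond counting noise. Symbols were found for 29201 gene IDs in a name table. The result of 1 gene ID in the cytosolic ribosomal protein list is not reported here.

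In R 4.3.3, edgeR 4.0.16 was used with filterByExpr (22000 genes kept), TMM and glmQLFit over all 12 libraries with a mean per group (common dispersion 0.104). Contrasts were tested two-sided by glmQLFTest and adjusted after Benjamini and Hochberg across the tested genes. SE is the log2 fold change over the root of F. The fit was tested on simulated counts with known changes. It recovered 89.1% of 4-fold changes but 22.2% of 2-fold changes, so that a 2-fold change was missed more often than found. DESeq2 1.42.0, other scalings, no filter, a replicate block, fits of the groups compared and fits without each library were alternatives.

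At 3 h after neomycin, the correlations of deviations between same-numbered sibling and mutant libraries were 0.30, 0.46 and 0.19. Between unlike-numbered libraries they were 0.15 (sibling 1 with mutant 3) and 0.07 (sibling 3 with mutant 1). They were -0.40 to -0.23 in the unlike-numbered pairs that hold a replicate 2. The labels give no source for a pairing. In the other comparisons at least 1 same-numbered pair was under 0.1.

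The members, classes and lists were chosen with earlier results of these data known. For each comparison the text names up to 5 members in each direction with the smallest adjusted p, or the 2 with the smallest p where none passes. It also names the 4 highest and 4 lowest by mean CPM, and the members of the stalk, the exit tunnel and the small-subunit set. MRPS11 was named for its position. MRPS14, lists of uncalled members and genes of the other lists were named after their values were seen.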

Additional observations from a re-analysis of the deposited data

How the results depend on the processing

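No member was called as fallen after neomycin in any fit, and no called value of a named gene changed sign. Among values of named genes under the alternatives, 262 stayed on their side of the threshold, 42 lost and 5 gained a call. The alternatives without replicate 2 of both groups at 3 h, and with only the groups compared and without sibling replicate 2, were chosen after seeing the data. In siblings, the 65 members that rose after neomycin became 9 with only the groups compared, 26 when sibling replicate 2 was left out of that fit, and 18 to 72 without 1 library. Over all genes, 22% were called in either direction in the main fit, and 10.9% and 18.6% in those fits. Without 1 library this share was 13.6% to 23.9%. The member count was 27, 18 and 36 without sibling replicate 1, 2 or 3 in homeostasis, 39 without sibling replicate 2 at 3 h, and 43 without mutant replicate 1 or 3 in homeostasis. Of these 65 calls, 17 held in all 12 such fits. The median over all members, called or not, was 1.20 and ran from 0.56 to 1.46 without 1 library. It was 0.55 without replicate 2 of both groups and 0.57 with only the sibling groups and without replicate 2. In mutants, the 5 that rose became 11 with library size only, 14 with DESeq2, 50 with only the groups compared, 32 without replicate 2 of both groups at 3 h, and 0 to 50 without 1 library. Over all genes, 16.5% were called in either direction in the main fit, and 16.9%, 22%, 29.8% and 24.9% in those fits in turn. Without 1 library this share was 9.61% to 27.2%. The member count was 1, 1 and 2 without sibling replicate 1, 2 or 3 in homeostasis. It was 0 without any 1 mutant library in homeostasis or without mutant replicate 2 or 3 at 3 h, where 9.61% to 11.1% of all genes were called. The member count was 2 without mutant replicate 1 at 3 h, and 8 and 50 without sibling replicate 1 or 2 at 3 h. The median over all members in mutants ran from 0.38 to 0.66 without 1 library. Between genotypes in homeostasis, the count higher (0) was 1 with only the groups compared (10.7% of all genes called) and without replicate 2 of both groups at 3 h (11.4%). It was 0 to 1 without 1 library (1.31% to 9.19% of all genes called), with medians of 0.01 to 0.18. At 3 h the count lower (0) ran from 0 to 2 without 1 library, where 3.97% to 13.1% of all genes were called in either direction. The median (-0.53) ran there from -0.78 to 0.11. That median was 0.0015 without replicate 2 of both groups, and 0.10 with only the groups compared and without sibling replicate 2. The interaction median (-0.66) ran from -0.86 to 0.013, the latter without sibling replicate 2 at 3 h, and was -0.10 without replicate 2 of both groups. The cause of these shifts was not tested. With the replicate number as a block, 58 members rose in siblings and 5 in mutants (24.3% and 18.9% of all genes called in either direction). None was called between genotypes, where 5.5% of all genes were in homeostasis and 12.7% at 3 h. The 3 h median was -0.46. Correlations of same-numbered libraries were 0.21, 0.05 and -0.06 in homeostasis, 0.26, -0.04 and 0.08 between the sibling groups, and 0.05, 0.23 and 0.17 between the mutant groups. Whether same-numbered libraries share more than a number was not tested, and the labels do not say.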
